A study of Mus musculus with 32 samples.

Results

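The cytosolic ribosome is built from a large and a small subunit, and the genes described here encode its proteins. They were taken as every probe set whose single annotated symbol is Rpl or Rps followed by a number, or Rplp0, Rplp2 or Rpsa, without the S6 kinases, pseudogenes, names ending in l1 and mitochondrial ribosomal proteins. That gave 97 probe sets of 46 genes, among 22626 probe sets and 12393 genes on the array. The large subunit had 43 probe sets of 24 genes and the small subunit 54 probe sets of 22 genes. They were chosen by symbol, though earlier results of these data were known. No filter on low values was applied, so all 97 were tested. The study measured messenger RNA on Affymetrix mouse arrays in midbrain and medulla. Mutant mice (KO) were deficient in Cckbr, a receptor for the neuropeptide cholecystokinin, and were set against control mice. Mice had chronic constriction injury (CCI), a loose ligation of a peripheral nerve used as a model of neuropathic pain, or a sham operation. The groups were KO CCI, KO sham, control CCI and control sham in each region, 4 arrays a group and 32 arrays in all, from 16 mice that each gave both regions. Labels name the deficient gene but not the allele, background strain, sex, age, nerve injured or the time after injury. Each array held the tissue of 1 mouse.

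Ribosomal proteins hold the ribosomal RNA in shape, line the paths of messenger RNA and of the growing chain, and recruit initiation and elongation factors. Their genes are expressed in every cell, and their messenger RNAs carry a pyrimidine stretch at the 5′ end through which mTOR signalling sets their translation. Neurons and glia differ in cell size and in ribosome content, and ribosomal RNA is dense in the Nissl bodies of large neurons. Many ribosomal protein genes have processed pseudogene copies, so probes can read more than 1 locus. Of the 97 probe sets, 42 end in _x_at or _s_at, by which the manufacturer marks probes that can match other transcripts, and a further 102 probe sets carry a ribosomal protein symbol together with other symbols and were counted apart. Levels below are log2(intensity + 16) after quantile normalization, and differences are on that scale, which understates changes of dim probe sets. Probe brightness depends on the probe as well as on the transcript, so levels of different genes are not set against each other.

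The sequences below are the promoter windows, from 250 bases before to 50 after the transcript start, of 5 genes that the comparison of the regions turned on. They are RefSeq windows of GRCm38.p6, written along the gene's strand, and lie at chr17:24719813-24720112 (plus strand) for Rps2, chr7:24884342-24884641 (plus strand) for Rps19, chr9:120127516-120127815 (plus strand) for Rpsa, chr3:90213599-90213898 (minus strand) for Rps27 and chr9:66945836-66946135 (plus strand) for Rps27l. For Rps19 and Rps27l the first of 3 and of 2 listed windows is shown. Capitals mark the motifs CCGGAAG (the core bound by ETS factors such as GABPA), GGGCGG (a GC box), AAGATGG (the YY1 core), TATAAA and the E-box CACGTG, each searched on both strands, and the pyrimidine runs CTTTCC and CTCTTTC, searched on the gene's strand, which can overlap each other.
Rps2: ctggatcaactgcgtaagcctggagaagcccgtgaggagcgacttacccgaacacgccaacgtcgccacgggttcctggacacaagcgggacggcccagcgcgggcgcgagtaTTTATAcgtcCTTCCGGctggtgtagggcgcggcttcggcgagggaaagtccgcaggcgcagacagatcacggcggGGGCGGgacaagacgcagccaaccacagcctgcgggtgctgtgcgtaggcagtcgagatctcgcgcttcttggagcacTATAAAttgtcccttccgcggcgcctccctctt
Rps19: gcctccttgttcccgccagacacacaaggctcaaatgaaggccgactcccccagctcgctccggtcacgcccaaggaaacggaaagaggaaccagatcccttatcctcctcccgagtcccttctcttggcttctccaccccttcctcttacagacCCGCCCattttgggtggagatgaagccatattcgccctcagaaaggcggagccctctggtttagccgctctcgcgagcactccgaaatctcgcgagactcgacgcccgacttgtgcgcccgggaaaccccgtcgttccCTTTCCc
Rpsa: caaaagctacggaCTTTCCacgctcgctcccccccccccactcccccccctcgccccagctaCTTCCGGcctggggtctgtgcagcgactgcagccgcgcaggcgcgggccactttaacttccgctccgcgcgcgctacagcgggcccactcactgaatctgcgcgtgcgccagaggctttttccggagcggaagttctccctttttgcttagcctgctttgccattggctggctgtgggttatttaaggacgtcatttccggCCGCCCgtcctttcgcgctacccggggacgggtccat
Rps27: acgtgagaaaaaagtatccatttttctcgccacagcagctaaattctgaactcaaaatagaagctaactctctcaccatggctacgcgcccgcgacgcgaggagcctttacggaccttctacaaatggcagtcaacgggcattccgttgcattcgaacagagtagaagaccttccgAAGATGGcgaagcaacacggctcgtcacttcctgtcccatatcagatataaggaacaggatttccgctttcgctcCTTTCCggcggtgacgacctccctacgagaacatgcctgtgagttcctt
Rps27l: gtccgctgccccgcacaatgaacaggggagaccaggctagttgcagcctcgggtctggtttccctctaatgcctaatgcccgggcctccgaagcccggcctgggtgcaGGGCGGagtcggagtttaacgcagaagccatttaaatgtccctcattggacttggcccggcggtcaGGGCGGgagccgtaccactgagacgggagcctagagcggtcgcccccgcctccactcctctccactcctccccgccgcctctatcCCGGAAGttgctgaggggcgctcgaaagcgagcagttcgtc
The ETS core was in the windows of 21 of the 40 ribosomal protein genes that had one (52.5%), against 9.12% of all 27025 promoter windows. The run CTTTCC was in 14 (35%), against 14% of all windows, and CTCTTTC in 4 (10%), against 3.91%. The GC box was in 21 (52.5%), against 35.9%, and AAGATGG in 5 (12.5%), against 6.48%. TATAAA was in 4 (10%), against 14.2%, and CACGTG in 3 (7.5%), against 7.24%. Of the windows shown, Rps2, Rpsa and Rps27l held the ETS core, Rps19 and Rps27 did not, and Rps27 held AAGATGG. The window of Rps15, which also rose in midbrain, is not shown and held none of the motifs searched. Among the 12 genes that rose in midbrain, named below, 6 windows held the ETS core. Such matches describe letters in a window and are not binding sites.

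Cckbr itself, on its brighter probe set, lay between 4.00 and 4.84 in KO midbrain and between 7.11 and 7.56 in control midbrain, with KO medulla at 4.43 to 5.40 and control medulla at 7.27 to 7.72 (8 arrays each). The regions matched their labels on marker genes. Of 16 midbrain markers, 10 were higher in midbrain, among them Slc6a3, the dopamine transporter (log2 difference 4.75, adjusted p = 3.55e-24), and Th, which makes the dopamine precursor (1.94, adjusted p = 4.80e-17), and all 13 medulla markers, chiefly Hox genes, were lower (Hoxa5 -4.07, adjusted p = 1.11e-16). Another 2 of the 16 midbrain markers were lower in midbrain. Of all genes, on 1 probe set each, 12.2% were higher in midbrain and 12.1% lower. Medians of the deposited intensities lay between 91.1 and 100.1, and with 4 arrays a group the number of arrays limits the precision. On the first principal component of their region 3 arrays stood apart, KO sham midbrain 2 and 4 at -36 and -26.4 and KO sham medulla 3 at 60.6. The 3′ minus 5′ level of Actb, a sign of RNA quality, was 1.499 on KO sham midbrain 2 and at most 0.77 on the other arrays. These arrays were kept, and the counts and medians that moved without them are given with the results. Fits without both midbrain arrays or without all 3 were not among the planned settings.

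Of the 97 probe sets 23 were higher in midbrain than in medulla and 3 were lower, and 82 of 97 lay above 0 whether or not they passed. The threshold was an adjusted p under 0.05 in limma's moderated test (two-sided, Benjamini-Hochberg over all probe sets tested). Of all probe sets 21.5% were called, 10.5% higher and 10.9% lower in midbrain. Of the ribosomal protein probe sets 26.8% were called, near the share of the whole array, and 23 of these 26 were higher. The median difference was 0.068 for the ribosomal proteins and 0.0057 for all probe sets. At an unadjusted p under 0.05, 42 were higher and 5 lower, where 15.7% and 15.9% of all probe sets were. The differences were small, and the lowest was -0.25, a probe set of Rpl22 that was 1.19-fold lower in midbrain. At the upper end stood Rpl12, a dim probe set (mean level 5.72), and then Rps2, each at 0.20, or 1.15-fold higher. In bulk tissue, fewer cells of a type and less RNA per cell cannot be told apart.

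The lean towards midbrain was seen in both subunits. In the large subunit 14 of 43 probe sets were higher and 1 was lower in midbrain, with a median of 0.076. In the small subunit 9 of 54 were higher and 2 lower, with a median of 0.068. Of all probe sets 10.5% were higher and 10.9% lower, and 21.5% were called in either direction, near the share of the small subunit. Of all probe sets with a mean level of 10 or more, 18.9% were higher and 17% lower. With 1 probe set per gene, the brightest, 12 of 46 genes were higher and 1 was lower, where 12.2% of all genes were higher and 12.1% lower. A further 29 genes lay above 0 and 4 below 0 without passing.

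**Figure D1:**
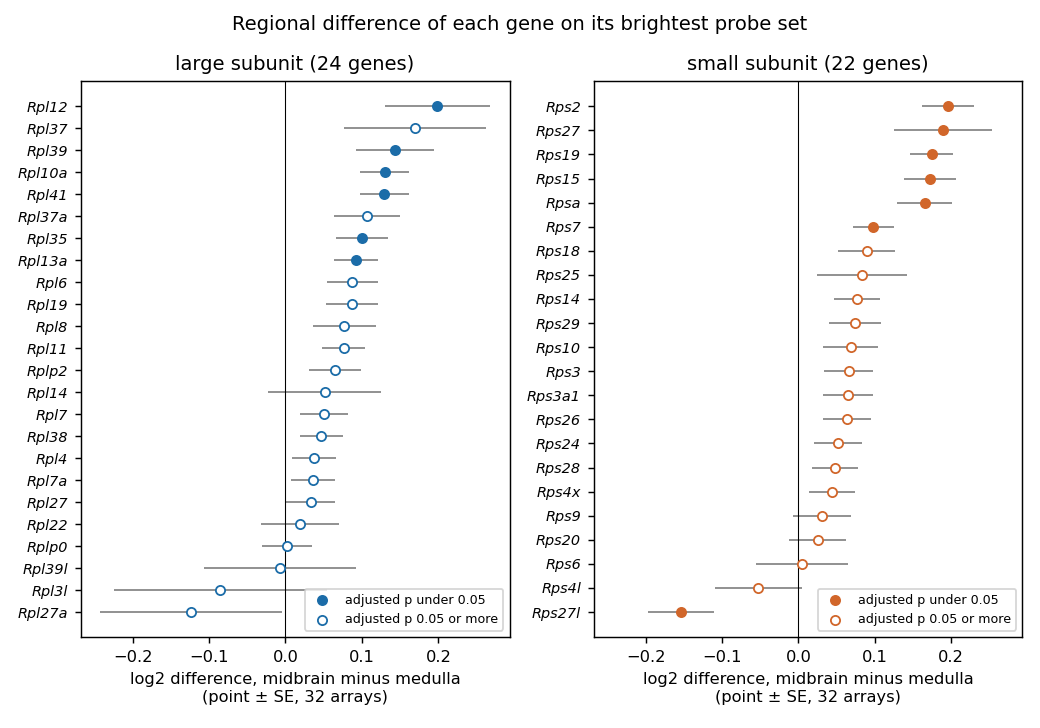
The log2 difference (midbrain minus medulla, point ± SE, 32 arrays) of each gene on its brightest probe set, large subunit left and small subunit right, with filled points for an adjusted p under 0.05. Filled points lie right of 0 in both panels apart from Rps27l at -0.15.

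Brighter and dimmer probe sets differed. On the 63 ribosomal protein probe sets with a mean level of 10 or more, a limit chosen after the data were seen, the difference was above 0 in 63 of 63, with a median of 0.076, 19 called higher and none of the 63 called lower (36 higher and 0 lower at an unadjusted p under 0.05). Of all 1630 probe sets that bright, 828 lay above 0, and 18.9% were called higher and 17% lower. On the 34 dimmer ribosomal protein probe sets the difference was above 0 in 19, with 4 called higher, 3 lower and a median of 0.024. Of all probe sets at any level 10.5% were called higher and 10.9% lower, so these dimmer counts lay near the share of the whole array. Several probe sets of the same transcripts and pseudogene copies share sequence, so the 63 are not independent measurements. The 102 probe sets with several symbols ran the same way, 99 above 0, 35 called higher and 2 lower, with a median of 0.092.

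**Figure D2:**
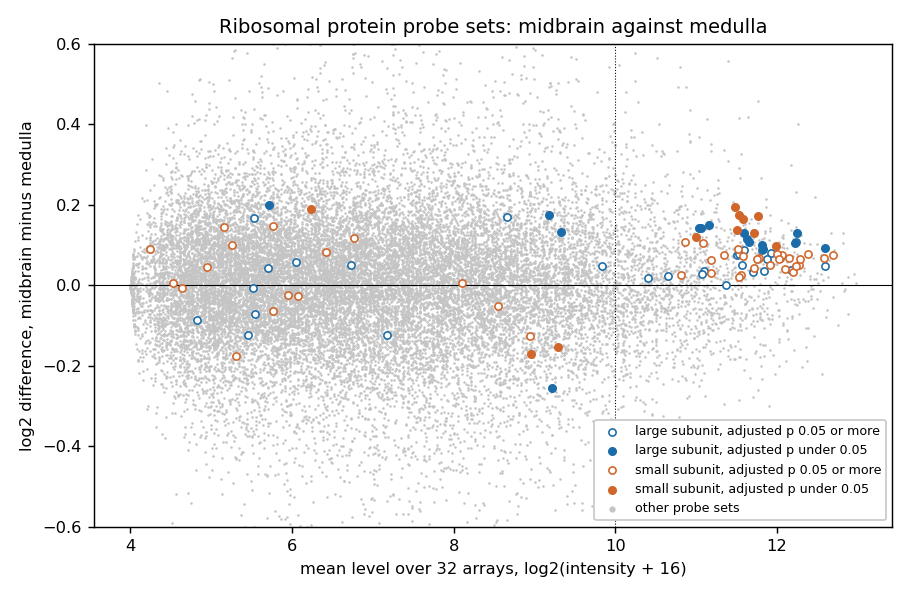
The log2 difference (midbrain minus medulla) against the mean level over 32 arrays for each ribosomal protein probe set, by subunit, with other probe sets in grey and the dotted line at a level of 10. Right of the line all 63 ribosomal protein points lie above 0, while left of it they spread to both sides; 391 other probe sets lie beyond the plotted range of 0.6 in either direction.

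Among small subunit genes Rps19, whose loss of function underlies Diamond-Blackfan anaemia, had the smallest p. Its level was 11.54 at the lowest, 11.63 at the median and 11.75 at the highest of 16 midbrain arrays, against 11.36, 11.45 and 11.54 in medulla. The groups barely touched, since 15 of 16 midbrain arrays lay above every medulla array. The difference was 0.17 (SE 0.028, adjusted p = 2.53e-05), and it was above 0 in 16 of 16 mice. Rps2, a protein of the messenger RNA entry channel, ranged from 11.45 to 11.68 in midbrain (median 11.59) and from 11.23 to 11.49 in medulla (median 11.37). Here 13 of 16 midbrain arrays lay above every medulla array and the difference was 0.20 (SE 0.034, adjusted p = 8.25e-05), higher in 16 of 16 mice. The only Rps2 probe set among the 97 ends in _x_at, so it can match other transcripts. The promoter of Rps2, shown above, holds the ETS core and a GC box.

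Rps15, which sits in the head of the small subunit, had 11.74, 11.82 and 12.12 as lowest, median and highest level in midbrain and 11.55, 11.67 and 11.79 in medulla. The ranges overlapped, though 14 medulla arrays lay below every midbrain array, and the difference was 0.17 (SE 0.034, adjusted p = 3.12e-04, 16 of 16 mice). Rpsa, also known as the laminin receptor precursor, ranged from 11.58 to 11.91 in midbrain and from 11.38 to 11.74 in medulla, a difference of 0.17 (SE 0.036, adjusted p = 0.00116, 16 of 16 mice). The second Rpsa probe set was dim (mean level 5.95) and read -0.02 (adjusted p = 0.898). Rps7, one of the ribosomal proteins that bind Mdm2, ranged from 11.98 to 12.13 in midbrain and from 11.84 to 12.03 in medulla, a difference of 0.10 (SE 0.027, adjusted p = 0.00964, 16 of 16 mice).

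Rps27 and Rps27l encode paralogous zinc-finger proteins of the small subunit, and they went opposite ways. Rps27 had 5.95, 6.35 and 6.62 as lowest, median and highest level in midbrain and 5.87, 6.12 and 6.40 in medulla, a difference of 0.19 (SE 0.064, adjusted p = 0.0327, above 0 in 14 of 16 mice). Its groups overlapped widely, and the call was lost in 10 of 32 fits that each left out an array (adjusted p up to 0.0607). Without the 3 arrays that stood apart the difference was still 0.19, with an adjusted p of 0.0544. Rps27l, a p53-induced gene in other settings, had 9.06, 9.19 and 9.42 in midbrain and 9.20, 9.33 and 9.63 in medulla. It was 1.11-fold lower in midbrain (log2 difference -0.15, SE 0.043, adjusted p = 0.0102), below 0 in 15 of 16 mice. Its other probe sets read -0.17 (adjusted p = 0.00398) and -0.12 (adjusted p = 0.0514). The difference between the paralogues' regional differences was not tested.

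**Figure D3:**
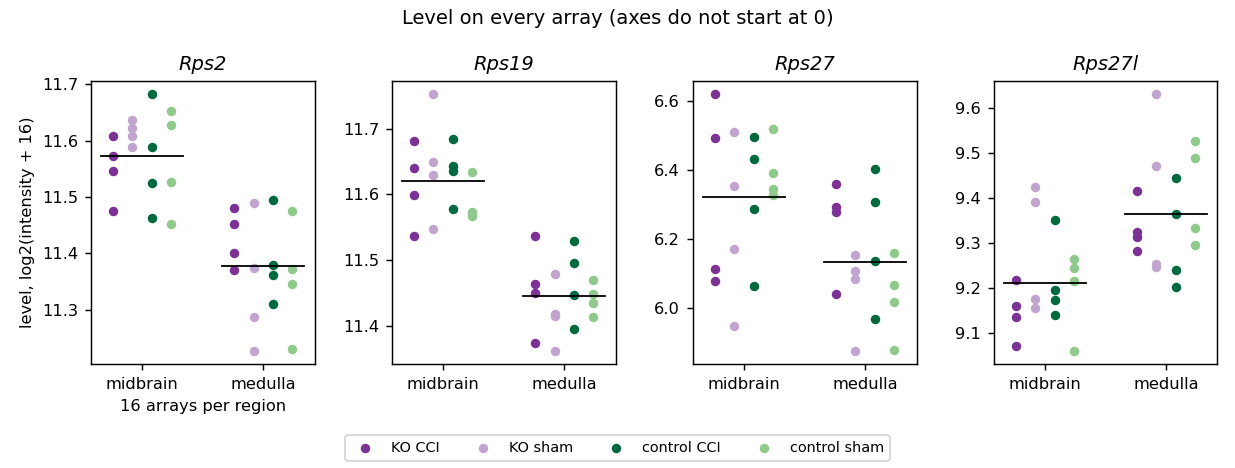
The level, log2(intensity + 16), of Rps2, Rps19, Rps27 and Rps27l on each of 16 midbrain and 16 medulla arrays, by group, with lines at the region means and axes that do not start at 0. Midbrain points of Rps2 and Rps19 lie above nearly all medulla points, those of Rps27 overlap medulla, and those of Rps27l lie lower.

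Of the large subunit genes, Rpl10a, Rpl41, Rpl39, Rpl13a, Rpl35 and Rpl12 passed on their brightest probe sets. The brightest probe set of Rpl37a did not pass (0.11, adjusted p = 0.0788), but another, ending in _x_at, did (0.10, adjusted p = 0.0185). Rpl10a, a protein of the L1 stalk that is widely tagged to purify ribosomes from chosen cell types, ranged from 11.59 to 11.77 in midbrain (median 11.65) and from 11.35 to 11.67 in medulla (median 11.51). The difference was 0.13 (SE 0.032, adjusted p = 0.0035) and 12 medulla arrays lay below every midbrain array. Rpl41, a very short peptide at the subunit interface, ranged from 12.19 to 12.44 in midbrain and from 11.97 to 12.29 in medulla, a difference of 0.13 (SE 0.032, adjusted p = 0.00386, above 0 in 15 of 16 mice). That Rpl41 probe set ends in _x_at, as do the brightest of Rpl13a and Rpl35 below, so they can match other transcripts. Probe sets without that suffix passed for Rpl13a at 0.18 and for Rpl35 at 0.14. Rpl39, which lines the exit tunnel, differed by 0.14 (SE 0.051, adjusted p = 0.0458, 13 of 16 mice), with 10.96 to 11.34 in midbrain and 10.55 to 11.28 in medulla. That call was lost in 23 of 32 fits that left out an array (adjusted p up to 0.0821) and without the 3 arrays that stood apart (0.156).

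Rpl13a, which in human cells leaves the ribosome on phosphorylation to silence inflammatory transcripts, ranged from 12.51 to 12.77 in midbrain and from 12.42 to 12.63 in medulla. The difference was 0.09 (SE 0.029, adjusted p = 0.022, 15 of 16 mice), and 2 of its 3 other probe sets also passed, at 0.13 and 0.18. The call on the brightest probe set was lost with median centring (0.05, adjusted p = 0.179) and with no further normalization (0.05, adjusted p = 0.162). Rpl35, at the rim of the exit tunnel, ranged from 11.70 to 12.12 in midbrain and from 11.63 to 11.85 in medulla, a difference of 0.10 (SE 0.034, adjusted p = 0.0318, 15 of 16 mice). Without both KO sham midbrain arrays that stood apart it read 0.07 (adjusted p = 0.102). Rpl12, at the base of the stalk that recruits elongation factors, was dim, with 5.57 to 6.20 in midbrain and 5.11 to 6.13 in medulla. Its difference of 0.20 (SE 0.069, adjusted p = 0.0398, 15 of 16 mice) was lost in 14 of 32 fits without an array and, without the 3 arrays that stood apart, stood at 0.19 (0.0629).

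Other genes known for a role of their own did not pass. Rplp0 and Rplp2, of the acidic stalk, read 0.00 (SE 0.033, adjusted p = 0.979) and 0.06 (SE 0.034, adjusted p = 0.206). Rps6, the substrate of S6 kinase, read 0.00 (SE 0.060, adjusted p = 0.967), with 7.65 to 8.41 in midbrain and 7.76 to 8.34 in medulla. Rpl11, which binds Mdm2 when ribosome assembly is disturbed, read 0.08 (SE 0.028, adjusted p = 0.052, above 0 in 14 of 16 mice) and passed under 8 of 19 other settings. Rpl3l, the muscle form of Rpl3, and Rpl39l, the testis form of Rpl39, sat near the floor of 4 (mean levels 4.83 and 5.52) and read -0.09 (adjusted p = 0.736) and -0.01 (adjusted p = 0.973). Fau, which encodes a small subunit protein fused to a ubiquitin-like domain and is named outside the Rps series, read 0.08 (SE 0.033, adjusted p = 0.0877). Rplp1, Rpl3, Rpl5, Rpl10, Rps27a and Rack1 were not analysed here.

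Probe sets of a gene did not always run together. The 2 probe sets of Rpl22, an RNA-binding protein studied in T-cell development, differed most: the brighter read 0.02 (SE 0.051, adjusted p = 0.845), and the other, whose suffix marks possible matches to other transcripts, read -0.25 (SE 0.036, adjusted p = 4.98e-06) and was lower in 16 of 16 mice. For Rpl35, 5 of 6 probe sets were called higher and the sixth, at a mean level of 5.46, read -0.12 (adjusted p = 0.484). The 6 probe sets of Rps24 ran from -0.18 to 0.05 and none of them passed (the lowest adjusted p was 0.0542). For Rps10, 1 of 6 passed, at 0.12 (adjusted p = 0.042), and its dimmest read -0.06. In Rpl35, Rps10 and Rpsa the probe sets at odds with the rest were those of mean level under 6.

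Within single mice the sign held. The median over the 97 probe sets of a mouse's midbrain minus its medulla level was above 0 in 16 of 16 mice for the large and for the small subunit, from 0.017 to 0.23 over both, with a median over mice of 0.047. Over all probe sets the same median ran from -0.018 to 0.04 and was above 0 in 7 of 16 mice. KO CCI mice had 0.039, 0.046, 0.066 and 0.047, and KO sham mice 0.024, 0.171, 0.23 and 0.064. Control CCI mice had 0.039, 0.038, 0.112 and 0.097, and control sham mice 0.017, 0.024, 0.038 and 0.058. The highest pair, KO sham mice at 0.171 and 0.23, held the 3 arrays that stood apart, and in the mouse at 0.171 the midbrain array had the Actb value of 1.499. For the second of these mice, titles and array numbers disagree on which midbrain array belongs to which medulla array, and array numbers were followed.

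**Figure D4:**
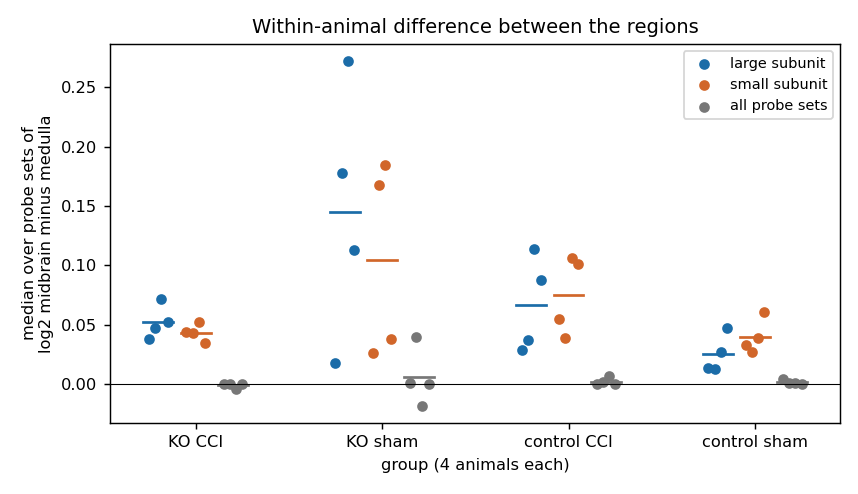
The median over probe sets of a mouse's log2 midbrain minus medulla difference, 1 point per mouse and lines at group means, for the large subunit, the small subunit and all probe sets. Points of both subunits lie above 0 in 16 of 16 mice, with a pair of KO sham mice highest, while all probe sets stay near 0.

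With the mouse as a random block, which uses this pairing, 40 probe sets passed (35 higher, 5 lower), where 13.6% of all probe sets were higher and 13.9% lower. Without the 3 arrays that stood apart 20 passed (16 higher, 4 lower), where 12.1% of all probe sets were higher and 13.4% lower, the median was 0.052 and 58 of the 63 brighter probe sets lay above 0. With the array code in the sample descriptions, whose meaning is not given, as a block, 37 passed (32 higher, 5 lower), where 12.1% of all were higher and 12.4% lower. Fits within a code also hold fewer arrays. Within the code shared by 14 arrays 1 probe set passed as lower (3.66% of all were higher and 3.72% lower), with a median of 0.055 and 59 of 63 brighter probe sets above 0. Within the code shared by 16 arrays 6 passed, 5 higher and 1 lower (4.62% of all were higher and 5.18% lower), with a median of 0.081 and 63 of 63 above 0. Within groups, the medians were 0.051 in KO CCI, 0.106 in KO sham, 0.077 in control CCI and 0.043 in control sham mice. In KO CCI mice 0 of 97 probe sets were called, where 4.77% of all were. At an unadjusted p under 0.05 there were 6 (16% of all). In KO sham mice 12 were called (7.09% of all), each of them higher (3.39% of all). In control CCI mice 1 was called (4.38%) and in control sham mice 1 (3.23%), both of them lower in midbrain. Without the 3 arrays that stood apart, the KO sham count was 1 of 97, higher, where 5.66% of all probe sets were called, and its median was 0.063. In that fit 2 passed in KO CCI mice, 1 higher and 1 lower (7.78% of all). In control CCI mice 3 passed, 2 higher and 1 lower (6.97%), and in control sham mice 1, lower (5.78%). Tests of these differences between groups are the region interactions given below.

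Other genes of the translation machinery were counted on 1 probe set each, where 12.2% of all genes were higher and 12.1% lower. Their difference from the ribosomal proteins was not tested. Of 9 elongation factor genes 2 were higher in midbrain and 1 was lower, with a median of 0.012. Eef1a1, which brings aminoacyl-tRNA to the ribosome, rose by 0.13 (SE 0.031, adjusted p = 0.0022), while Eef2k, the kinase that inhibits elongation, was lower by a difference of -0.22 (SE 0.052, adjusted p = 0.0024). Of 31 initiation factor genes 6 were higher and 3 lower, with a median of 0.030, among them Eif4b at 0.15 (adjusted p = 0.0147), Eif3h and Eif3k, subunits of the eIF3 scaffold, at 0.14 each (adjusted p = 0.013 and 0.0148) and Eif1b at -0.23 (adjusted p = 0.00633). Of 53 ribosome biogenesis genes 4 were higher and 1 was lower, with a median of 0.026. Pno1, needed to mature the small subunit, read -0.32 (SE 0.039, adjusted p = 3.26e-07), and Nop58 and Utp20, of the nucleolar particles that process ribosomal RNA, read 0.28 (adjusted p = 2.34e-04) and 0.34 (adjusted p = 0.00714). Of 13 S6 kinase and mTOR genes 3 were higher, the S6 kinase-like Rps6kl1 at 0.28 (adjusted p = 3.58e-04), Rps6kc1 at 0.19 (0.0127) and Rps6ka3 at 0.15 (0.0184), and the median was 0.069.

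The mitochondrial ribosomal proteins, which build the separate ribosome of that organelle, had 2 of 74 genes higher in midbrain and 9 lower. Of all genes 12.2% were higher and 12.1% lower, so the count of lower genes lay near the share of the whole array. The median of the list was -0.0098, with 36 of 74 above 0. Mrpl35 and Mrps6 read -0.24 (adjusted p = 3.43e-04) and -0.21 (adjusted p = 0.00119). The difference between this list and the cytosolic ribosomal proteins was not tested.

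Markers of cell types also differed between the regions, and their part in the ribosomal protein difference was not tested. They were counted on 1 probe set per gene, where 12.2% of all genes were higher in midbrain and 12.1% lower. Of 12 oligodendrocyte and myelin genes 10 were lower in midbrain, with a median of -0.24. Their mean level was 10.45 to 10.64 over midbrain arrays and 10.68 to 10.91 over medulla arrays, with no overlap, and Mag, a myelin adhesion protein, read -0.43 (adjusted p = 2.32e-09). Of 12 astrocyte genes 1 was higher and 7 lower, with mean levels of 9.81 to 9.87 in midbrain and 9.93 to 10.18 in medulla. Of 16 neuronal genes 2 were higher and 6 lower (10.40 to 10.72 in midbrain, 10.64 to 10.80 in medulla), led by the neurofilament Nefh at -0.86. Of 7 choroid plexus genes 1 was higher and 5 lower, with mean levels of 6.07 to 6.84 in midbrain and 5.93 to 8.67 in medulla, Kcne2 being near the floor in midbrain at 4.18 ± 0.14 (SD, n = 16). None of the 15 microglial genes and none of the 4 red blood cell genes passed (1 of each list at an unadjusted p under 0.05), and of 12 endothelial genes 3 were lower.

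The members also co-varied weakly within groups. After the group means were removed, the median Pearson correlation over 16 arrays between bright probe sets of different ribosomal protein genes was 0.07 in midbrain and 0.20 in medulla. With other bright probe sets it was -0.03 in midbrain and 0.02 in medulla. Large with small subunit pairs gave 0.08 in midbrain and 0.22 in medulla, much as pairs within a subunit did. All such pairs share arrays, labelling and any sequence common to copies, and the values are a description.

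Loss of Cckbr did not bring any ribosomal protein probe set past the threshold in either region. In medulla, 0 of 97 were called between KO and control mice averaged over operation, where 0.053% of all probe sets were (2 at an unadjusted p under 0.05, 3.36% of all), and the median was -0.019, against -0.0036 over all probe sets. Without KO sham medulla 3 the median was -0.002, as over all probe sets (-0.002). The genes of smallest p there were Rpl12 at -0.22, Rpl39l at -0.15, Rps14 at 0.07, Rps25 at -0.12 and Rplp2 at -0.07 (unadjusted p from 0.0802 to 0.18). In sham mice 0 were called (0.0133% of all), with 3 at an unadjusted p under 0.05 (3.82% of all) and a median of -0.028, which was -0.001 without KO sham medulla 3. Rpl39l read -0.33 (SE 0.13, unadjusted p = 0.0199, adjusted p = 0.996), and its 4 KO sham medulla arrays, at 5.03, 5.29, 5.31 and 5.49, overlapped the control sham medulla arrays, at 5.87, 5.55, 5.52 and 5.48. Rplp2 (-0.12), Rpl41 (-0.12), Rpl7 (0.13) and Rps4l (-0.20) followed. In CCI mice 0 were called (0.00442% of all), none of the 97 had an unadjusted p under 0.05 in limma's test (2.44% of all), and Rps25 (-0.21), Rps14 (0.10), Rps6 (-0.18), Rpl3l (0.41) and Rpl12 (-0.20) had the smallest p.

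In midbrain 0 of 97 were called for genotype averaged over operation (0.0309% of all), 4 had an unadjusted p under 0.05 (7.47% of all), and the median was 0.018, against -0.0076 over all probe sets. It was 0.00 without both KO sham midbrain arrays that stood apart and -0.004 with median centring. Rpl13a (0.08), Rps25 (-0.14), Rpl35 (0.08), Rps3 (-0.08) and Rpl4 (-0.06) had the smallest p on their brightest probe sets. In sham mice 0 were called (0.0133% of all), 7 had an unadjusted p under 0.05 (8.47% of all), and 72 of 97 lay above 0 with a median of 0.050, against 0.0012 over all probe sets. The 7 were large subunit probe sets of 3 genes, Rpl35 (brightest probe set 0.16, SE 0.07), Rpl27 and Rpl12 (-0.25, SE 0.10). Rpsa (0.13), Rpl19 (0.15) and Rps15 (0.13) came next. The KO sham midbrain group holds 2 of the arrays that stood apart, and without them the median was 0.030. In CCI mice 0 were called (0.00884% of all), 3 had an unadjusted p under 0.05 (4.95% of all) and the median was -0.020. Rps25, a protein used by some viral internal ribosome entry sites, had 6.25, 6.47, 6.24 and 6.24 in KO CCI midbrain and 6.58, 6.71, 6.6 and 6.65 in control CCI midbrain. The groups did not overlap, yet the difference of -0.33 (SE 0.12) did not pass (unadjusted p = 0.0145, adjusted p = 0.966). Rps6 (-0.22), Rpl3l (0.36), Rpl7 (0.07) and Rps4l (-0.12) followed.

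Nerve injury gave no call either. In control medulla 0 of 97 were called between CCI and sham mice, as of all probe sets (0%), with 1 at an unadjusted p under 0.05 (2.79% of all), Rpl7 at 0.16, then Rps27 (0.17), Rps18 (-0.13), Rpl37 (-0.28) and Rplp2 (-0.09), and a median of -0.0020. In KO medulla 0 were called (0% of all), with 1 at an unadjusted p under 0.05 (4.25% of all), Rpl39l at 0.34, followed by Rps4l (0.23), Rps27 (0.19), Rpl19 (0.12) and Rpl27a (-0.38). The median was 0.031, and -0.001 without KO sham medulla 3. In control midbrain 0 were called (0% of all), with 2 at an unadjusted p under 0.05 (3.01% of all), Rpl12 at -0.22 and Rpl3l at -0.47, followed by Rps25 (0.20), Rps4l (0.16) and Rps6 (0.13). The median was 0.018, against 0.0043 over all probe sets. In KO midbrain 0 were called (0% of all), with 2 at an unadjusted p under 0.05 (8.24% of all), both of Rps6, at -0.24 (SE 0.10) on the brighter and -0.36 on the other. Rps20 (-0.16), Rpsa (-0.12), Rpl19 (-0.13) and Rps27l (-0.14) came next. The median was -0.052, and -0.015 without both KO sham midbrain arrays that stood apart.

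**Figure D5:**
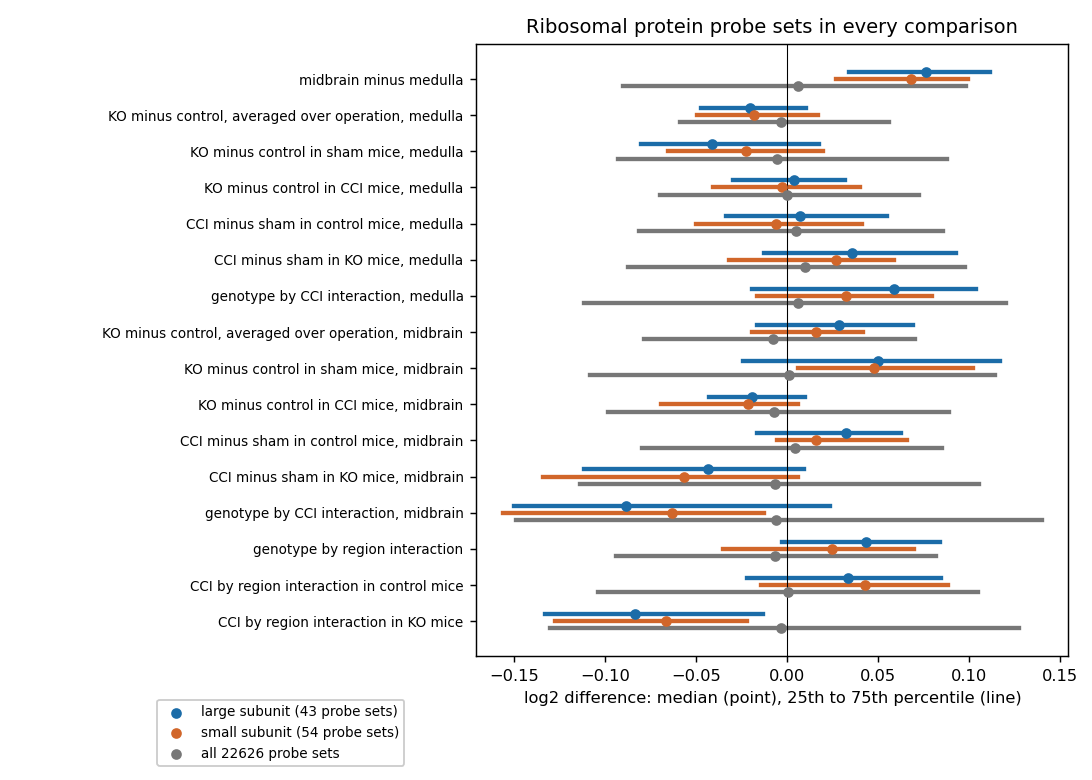
The median (point) and the range from the 25th to the 75th percentile (line) of the log2 difference of the large subunit, small subunit and all probe sets in each comparison. Only for midbrain minus medulla do both subunit ranges lie wholly right of 0, and for the CCI by region interaction in KO mice both lie left of 0.

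The interactions, which ask whether injury acts differently in KO mice or whether either factor acts differently in the regions, gave 0 calls of 97 each, and 0% of all probe sets passed in each. For genotype by CCI, the KO injury difference minus the control one, the median was 0.040 in medulla (0 at an unadjusted p under 0.05 in limma's test, 2.66% of all probe sets) and -0.078 in midbrain (5 at an unadjusted p under 0.05, 5.48% of all). In midbrain Rps6 (-0.38, SE 0.15), Rpl12 (0.36, SE 0.14) and Rps25 (-0.38, SE 0.17) had the smallest p, each with an adjusted p of 0.822, then Rpsa (-0.16) and Rpl19 (-0.17). In medulla these were Rpl39l (0.35), Rpl27a (-0.52), Rpl7 (-0.16), Rpl37 (0.41) and Rpl11 (0.12). Without the arrays that stood apart the medians were 0.012 in medulla and -0.047 in midbrain.

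For genotype by region the median was 0.036 (2 at an unadjusted p under 0.05, 3.81% of all), 0.009 without the 3 arrays that stood apart and 0.012 with median centring, and Rpl10a (0.10), Rps28 (0.09), Rplp2 (0.10), Rpl39 (0.14) and Rps14 (-0.08) had the smallest p. For CCI by region in control mice it was 0.041 (1, 1.81% of all), with Rpl7 (-0.18), Rps18 (0.18), Rpl12 (-0.34), Rps27 (-0.25) and Rpl27 (0.13). For CCI by region in KO mice 15 of 97 lay above 0 and the median was -0.069, against -0.0033 over all probe sets, with 4 at an unadjusted p under 0.05 (3.69% of all). Rpl39l (-0.74, SE 0.28), Rpl19 (-0.24, SE 0.10), Rps20 (-0.22, SE 0.10), Rps2 (-0.14) and Rpl41 (-0.12) had the smallest p there, each with an adjusted p of 0.999. This median was -0.011 without the 3 arrays that stood apart, all of them in the KO sham groups. Several of these comparisons share arrays, so their medians are not independent of each other.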

How the data were processed

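RNA was extracted with Trizol and labelled as biotinylated cRNA from 4 µg of total RNA for 1 Affymetrix array per sample, per the labels' protocols. The deposited values are linear intensities per probe set, some below 0, brought to a common scale by the authors. The software, background correction and summary method are not given in the sources used here. Values below 0 were set to 0, arrays were quantile normalized, and log2(intensity + 16) was tested with limma 3.58.1 in R 4.3.3, without a filter on dim probe sets. Control probe sets (64) were left out. Of 22626 probe sets, 20380 had 1 symbol, 691 several and 1555 none in the platform annotation, and symbols were matched to RefSeq by gene ID for 20349.

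Region comparisons used all 32 arrays with 8 group means, and comparisons within a region its 16 arrays with 4 group means. P-values were adjusted by Benjamini-Hochberg over all probe sets. The procedure was also run on simulated data with independent noise on each array. Those data held no correlation within an animal and no outlying arrays, so they cannot show how the procedure handles either. The design states that each animal gave both regions. Animals were paired by array number, and the consensus correlation within an animal was 0.242. P-values rest on the spread of arrays within groups, pooled over the groups of a fit and moderated across probe sets. Each group held 4 mice. The main fit between the regions took both arrays of a mouse as independent, and the fits with the mouse as a block were run as alternatives.

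Genes were named by rule on the brightest probe set of each gene: up to 12 called genes per direction between the regions, up to 10 in other comparisons or, with under 5 called, the 5 of smallest p, genes of known role, the 5 genes whose probe sets differed most, up to 4 genes per list of smallest p, and genes with an array far from its group. Members and lists were chosen with earlier results of these data known. Alternatives covered normalization, pseudocount, dim probe sets, variance model, array weights, array code, blocks, choice of probe sets and leaving out arrays. Promoter sequences are from RefSeq (GRCm38.p6).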

Additional observations from a re-analysis of the deposited data

Results flagged for a closer look

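Of 384 sets of 4 arrays checked, 18 (4.69%) had 1 array far from the other 3, and chance gives about 1 in 20. KO sham medulla 3 held 4 of the 18: Rps9 at 10.79 (others 11.20 to 11.26), Rpl12 at 5.11 (5.54 to 5.56), Rpl27a at 8.41 (7.05 to 7.27) and Rps20 at 11.27 (11.56 to 11.60). Another KO sham medulla array, replicate 2, had Rpl35 at 11.65 (11.83 to 11.84). In KO CCI midbrain, replicate 2 was high for Rpl7 at 11.73 (11.59 to 11.61) and Rps25 at 6.47 (6.24 to 6.25), and replicate 1 for Rps7 at 12.13 (11.98 to 12). In KO sham midbrain, Rpl11 was at 11.42 on replicate 1 (11.53 to 11.54) and Rps24 at 12.11 on replicate 4 (12.31 to 12.34).

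In control CCI midbrain, replicate 1 had Rps4x at 11.83 (11.69 to 11.71) and Rps14 at 12.01 (others 12.15). In control sham midbrain, Rpl4 was at 12.29 on replicate 1 (others 12.22) and Rps19 at 11.63 on replicate 3 (others 11.57). In control CCI medulla, Rps26 was at 11.12 on replicate 1 (11.20 to 11.21) and Rps7 at 11.84 on replicate 3 (11.97 to 11.99). In control sham medulla, Rpl11 was at 11.51 on replicate 3 (others 11.47) and Rpl39 at 11.28 on replicate 1 (11.00 to 11.03).

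Rpl7, a large subunit protein, differed between midbrain and medulla by -0.05 in control CCI mice and by 0.13 in control sham mice, with all 4 animals of each group on opposite sides of 0. The CCI by region interaction of Rpl7 in control mice was -0.18 (limma, unadjusted p = 0.0597, adjusted p = 1).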

How the results depend on the processing

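Between the regions, 26 of 97 ribosomal protein probe sets passed, where 10.5% of all probe sets were higher and 10.9% lower. The count was 1 within the array code of 14 arrays (code A; 3.66% of all probe sets higher, 3.72% lower) and 6 within that of 16 arrays (code B; 4.62% and 5.18%), fits with fewer arrays, and 37 with the code as a block (12.1% and 12.4%). It was 12 of 55 without _x_at and _s_at probe sets of the members, 11 higher and 1 lower. Of all probe sets 10.5% were higher and 10.9% lower there, so this count lay near the share of the whole array. With 1 probe set per gene it was 16 of 46 with p adjusted over genes (13% of all genes higher, 12.8% lower). With p adjusted over all probe sets it was 13 of 46 (12.2% and 12.1%). It was 21 to 30 without an array in turn. Of the brighter probe sets, 60 to 63 of 63 lay above 0 without an array in turn, 35 of 35 with 1 probe set per gene and 30 of 30 without _x_at and _s_at probe sets. With the animal as a random replicate block 40 of 97 passed (13.6% of all higher, 13.9% lower) and as a fixed block 35 (13.4% and 13.8%). With the title number as a block 34 passed (11.6% and 12.1%). The residuals of an animal's arrays correlated at 0.171 on average, over 0.1 in 10 of 16 animals. In the genotype and injury comparisons and the interactions 0 were called by limma under every setting run.

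Of the 4732 gene values compared, 93 were no longer past the threshold, 15 were newly past it and 58 turned in sign, 35 of these without an array in turn. Region values near 0 turned. Rpl39l read 0.00 with a pseudocount of 64, 0.06 with array weights, 0.09 within code B and 0.05 without both or all 3 arrays that stood apart (-0.05 to 0.04 without an array in turn). Rpl3l read 0.02 with array weights, 0.06 within code A and 0.00 without the 3 arrays. Rplp0 read -0.03 with median centring and with no further normalization, and -0.07 within code A (-0.01 to 0.02 in turn). Rps6 read -0.05 with array weights, -0.07 within code A, and -0.02 and -0.05 without both or all 3 arrays (-0.03 to 0.03 in turn). Rpl22 read -0.08 within code A and -0.02 without the 3 arrays (-0.01 to 0.04 in turn). Within code B Rpl12 read 0.08 for CCI by region in control mice and 0.10 for genotype in CCI medulla, and Rpl39l 0.00 for genotype in medulla. Within code A Rplp2 read 0.02 for CCI in control medulla, Rps4l -0.04 for CCI in control midbrain and Rpl19 0.01 for genotype by CCI in midbrain. The cause was not tested. Dim probe sets limit Rpl12, Rps27, Rpl3l and Rpl39l.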
